A study of Mus musculus with 2 samples.

Results

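Nrp1, Ntrk2, Ntrk3 and Hdac6 encode proteins that have been proposed as partners of mutant glycyl-tRNA synthetase, the product of the Gars gene. They were chosen by their Ensembl identifiers, ENSMUSG00000025810 for Nrp1, ENSMUSG00000055254 for Ntrk2, ENSMUSG00000059146 for Ntrk3 and ENSMUSG00000031161 for Hdac6. All 4 were listed among the 12530 mouse genes of the ribosome profiling tables in both genotypes. Ribosome profiling sequences the mRNA fragments that ribosomes protect from a nuclease. The tissue was mouse spinal cord, from wild-type animals (WT) or from animals heterozygous for the C201R allele of Gars (GarsC201R/+). Each genotype had 1 library, for which lysates of 3 animals were pooled, and the heterozygous one is called the C201R library below. The labels used here state no age, sex or strain background.

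Glycyl-tRNA synthetase charges tRNAs with glycine, and dominant mutations in its gene cause a peripheral neuropathy of motor and sensory axons. One line of work proposed that mutant forms of the enzyme bind proteins that the normal form does not. Neuropilin 1, the product of Nrp1, is a co-receptor for class III semaphorins and for VEGF-A, and is found on neurons and on endothelial cells. TrkB and TrkC, the products of Ntrk2 and Ntrk3, are receptor tyrosine kinases for the neurotrophins BDNF and NT-3. HDAC6 is a mainly cytoplasmic deacetylase that removes acetyl groups from alpha-tubulin, on which axonal transport motors run. Binding between proteins was not measured here. The values are the reads counted for each gene, and the comparison asks whether the reads of these genes themselves differed between the 2 libraries.

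In the RefSeq annotation of GRCm38.p6, Nrp1 spans chr8:128358591-128505476, Ntrk2 spans chr13:58806472-59133970, Ntrk3 spans chr7:78179986-78581034 and Hdac6 spans chrX:7930116-7948047. The tables give 1 total per gene, so exons, coding sequence and UTRs were not separated. Nrp1 and Ntrk2 each have 3 curated RefSeq transcripts, and Ntrk3 and Hdac6 each have 2. The totals merge all of them. For both Trk genes, forms that carry the kinase domain and any truncated forms that lack it were therefore read as 1 value, and for Nrp1 so were the membrane-bound and any secreted forms. No other protein-coding RefSeq gene overlaps any of the 4. Nrp1 overlaps the lncRNA gene Gm32643 and the miRNA gene Mir1903, Ntrk2 overlaps the lncRNA gene Gm53063, and Ntrk3 overlaps the lncRNA gene Gm39038. These overlaps are between whole gene spans, introns included, and whether any counted bases are shared was not examined. The strand setting of the counting is also unknown. If counted bases are shared, reads of these RNA genes could not be told apart there from reads of the 3 protein-coding genes.

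The wild-type library held 7771455 listed reads and the C201R library 3514016, so the wild-type library was 2.21 times as deep. Read numbers were scaled between the libraries with TMM, a factor computed over all genes. In bulk tissue, fewer cells of a type and less RNA per cell cannot be told apart, and without an RNA library mRNA amount and ribosome load cannot either. The level of Gars and markers of spinal cord cell types were not analysed here, because the tables hold identifiers and not symbols. The labelled tissue and genotype were therefore taken from the labels alone. The intervals below are 95% intervals for counting error in these 2 pooled libraries. They leave out variation between animals and between libraries, and the genotypes themselves were not tested.

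The levels of the 4 genes differed by less than 1.5-fold between the libraries. None of the 4 was higher in the C201R library by 1.5-fold or more, against 8.14% of the 9726 genes tested, those with at least 100 reads over both libraries. None was lower by that fold, against 11.3%, and 19.4% of the genes passed it in either direction. Their log2 ratios, C201R over wild type, ran from -0.23 for Ntrk3 to 0.030 for Hdac6, with a median of -0.032, next to a median of -0.034 over all genes tested. For all 4, the whole counting interval lay within 1.5-fold of equal levels. The same held for 47.2% of the genes tested, since it needs enough reads as well as a ratio near equal. The interval held equal levels for Nrp1, Ntrk2 and Hdac6 and just missed them for Ntrk3, and 51.9% of the genes tested had an interval that excluded equal levels. With 1 library per genotype none of these differences has a replicate check.

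**Figure D1:**
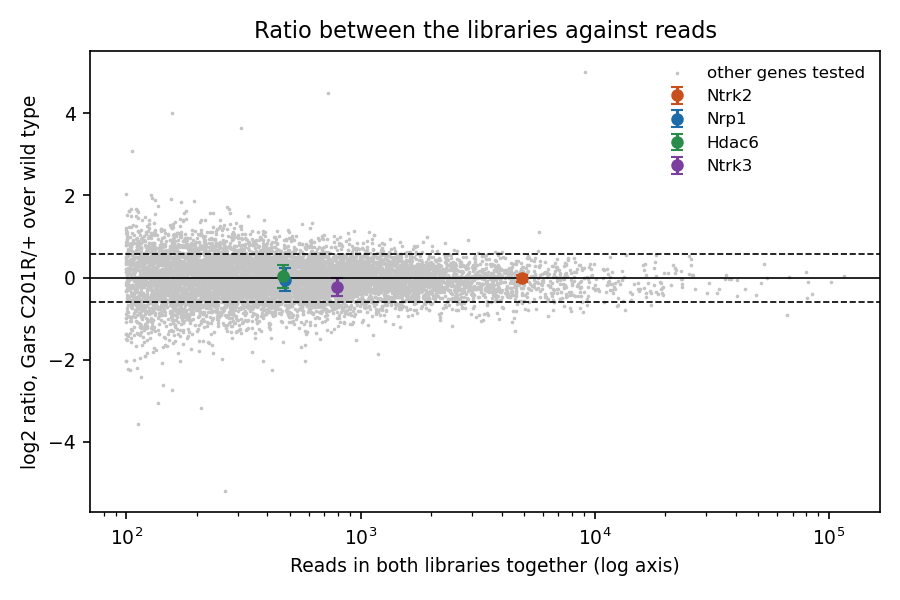
The log2 ratio, C201R over wild type (vertical axis), is plotted against the reads of a gene in both libraries together (horizontal log axis) for the 9726 genes tested, in grey. Coloured points are Ntrk2, Nrp1, Hdac6 and Ntrk3 with 95% counting intervals, and dashed lines mark 1.5-fold. All 4 intervals sit between the dashed lines, and Ntrk3, at -0.23, is the lowest of the 4.

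Nrp1 encodes the co-receptor through which semaphorins signal with plexins and VEGF-A with its receptor kinases. Its reads numbered 328 in wild type, with a 95% Poisson interval of 293 to 365, and 148 in the C201R library, with an interval of 125 to 174. At an equal level, 153 reads would be found in the C201R library. The measured number was thus lower by less than the width of its own interval. The log2 ratio was -0.047 (95% counting interval -0.34 to 0.24), a fold of 0.968 (0.791 to 1.18). The interval does not exclude a difference between the libraries of up to its bounds. The RPKM value, reads per kilobase of gene and scaled to library depth, was 11.7 (10.5 to 13.0) in wild type and 11.7 (9.88 to 13.7) in the C201R library. Nrp1 was thus above 59.6% of the genes in wild type and above 58.8% in the C201R library, a little over the middle of the listed genes.

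Ntrk2, the gene of the BDNF receptor TrkB, was the best covered of the 4. TrkB is made by neurons, and astrocytes make mainly a truncated form. Reads of Ntrk2 numbered 3333 (3221 to 3448) in wild type and 1536 (1460 to 1615) in the C201R library, where an equal level would give 1554 reads. The log2 ratio was -0.017 (-0.11 to 0.071), and the fold was 0.988 (0.930 to 1.05). This was the narrowest interval of the 4, and a difference above 1.05-fold upward or below 0.930 downward lay outside it. The RPKM was 48.9 (47.3 to 50.6) in wild type and 49.9 (47.4 to 52.5) in the C201R library. Ntrk2 was above 88.9% of the genes in both libraries, at rank 1386 in wild type and rank 1389 in the C201R library.

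Ntrk3, the gene of the NT-3 receptor TrkC, had the ratio furthest from equal. TrkC is known for its part in the survival of proprioceptive sensory neurons, whose cell bodies lie outside the spinal cord, and it is also made by neurons within the cord. Reads of Ntrk3 numbered 567 (521 to 616) in wild type and 226 (197 to 257) in the C201R library, where an equal level would give 264 reads. Its count in the C201R library was thus below the equal level by slightly more than counting error after TMM scaling. The log2 ratio was -0.23 (-0.46 to -0.0014), a fold of 0.855 (0.729 to 0.999). The upper bound of the interval all but touches equal levels, and total-count scaling gave -0.17 (-0.40 to 0.052), which holds them. Of the genes tested, 32.8% had a lower ratio than Ntrk3. The RPKM was 3.69 (3.40 to 4.01) in wild type and 3.26 (2.85 to 3.71) in the C201R library, above 28.2% and 24.7% of the genes. This low rank is per a length of 19703 nt, against a median gene length of 3092 nt. How much of that length is coding was not analysed here, so the rank is no measure of reads per coding length.

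Hdac6, the gene of the tubulin deacetylase, was the only one of the 4 with a ratio above 0 after TMM scaling. It was -0.094 when a random draw thinned the wild-type reads to the number of the C201R library. That draw kept 155 wild-type reads of Hdac6, and another draw could give another sign. With all reads, the other settings but the spike-ins gave 0.028 to 0.084. Reads of Hdac6 numbered 315 (281 to 352) in wild type and 150 (127 to 176) in the C201R library, where an equal level would give 147 reads. The excess was thus 3.12 reads, well inside the counting interval. The log2 ratio was 0.030 (-0.26 to 0.32), a fold of 1.02 (0.835 to 1.24). The RPKM was 9.76 (8.71 to 10.9) in wild type and 10.3 (8.71 to 12.1) in the C201R library, above 54.4% and 55.2% of the genes.

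**Figure D2:**
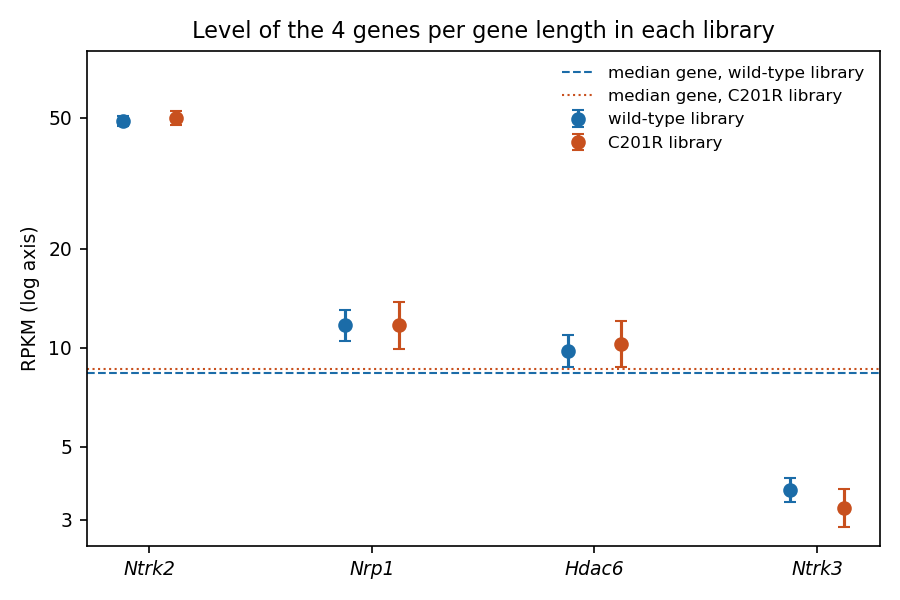
RPKM on a log axis is shown for Ntrk2, Nrp1, Hdac6 and Ntrk3 in wild type (blue) and in the C201R library (orange), with exact 95% Poisson intervals, and lines mark the median gene of each library at 8.40 and 8.63. Ntrk2, at 48.9 and 49.9, stands above the other genes, Nrp1 and Hdac6 lie near the median, and Ntrk3 lies below it. RPKM divides by the whole gene length used, which was longest for Ntrk3, and not by coding length.

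The 4 ratios were set beside those of genes with similar read numbers. Nrp1 and Hdac6 fell in a group of 960 genes with 448 to 601 reads over both libraries, whose log2 ratios had a robust SD of 0.42 and ran from -0.57 at the 10th to 0.43 at the 90th percentile. In that group 8.33% of the genes were closer to equal than Nrp1 and 5.21% closer than Hdac6. Ntrk2 fell in the group with the most reads, 973 genes with a robust SD of 0.32, in which 4.73% of the genes were closer to equal. For Ntrk3 the group held 975 genes with 602 to 819 reads and a robust SD of 0.39, and 44.2% of them were closer to equal. The ratio of Ntrk3 was therefore smaller than the usual spread between these libraries at its read number. That spread holds any difference between the genotypes as well as that between libraries. A pattern over 2 libraries is 1 ratio, and many genes share it: 786 other genes tested lay within 0.05 of the log2 ratio of Ntrk3, 843 within 0.05 of Nrp1, 877 of Ntrk2 and 902 of Hdac6. Likeness of pattern therefore singled out no gene.

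Per gene length, the order of the levels was Ntrk2, Nrp1, Hdac6 and Ntrk3 in both libraries. Ntrk2 had 4.18 times the RPKM of Nrp1 in wild type (3.73 to 4.70) and 4.27 times in the C201R library (3.60 to 5.09). Nrp1 and Hdac6, the neighbours in the middle of the order, were close. Nrp1 had 1.20 times the RPKM of Hdac6 (1.02 to 1.40) in wild type and 1.14 times (0.899 to 1.44) in the C201R library, where the interval holds equal levels. Hdac6 had 2.64 times the RPKM of Ntrk3 (2.30 to 3.04) in wild type and 3.16 times (2.55 to 3.90) in the C201R library. The place of Ntrk3 depended on its length. The lengths behind the RPKM values were 19703 nt for Ntrk3, 8744 nt for Ntrk2, 4142 nt for Hdac6 and 3597 nt for Nrp1, and the part of each that is coding was not analysed here. By reads alone, not divided by length, Ntrk3 came second in both libraries.

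The balance between 2 genes of the same library needs no scaling between libraries. For the 2 Trk receptors, Ntrk2 had 5.88 times the reads of Ntrk3 in wild type and 6.80 times in the C201R library. Ntrk2 made up 85.5% of the reads of both Trk genes (95% Wilson interval 84.3% to 86.5%) in wild type and 87.2% (85.5% to 88.7%) in the C201R library. The log2 change of this balance was 0.21 (exact conditional interval -0.033 to 0.46), so equal balance lay within counting error. The reads of Nrp1 over those of Hdac6 were 1.04 in wild type and 0.987 in the C201R library, a log2 change of -0.078 (-0.49 to 0.33). Across all 6 pairs the log2 change ran from -0.26 for Ntrk3 over Hdac6 (-0.62 to 0.11) to 0.21 for Ntrk2 over Ntrk3, and each of the 6 intervals held 0. The interval of Ntrk3 over Hdac6 reached past 1.5-fold on the lower side, so it does not exclude a shift of that size between these genes. With the wild-type reads thinned by a random draw to the number of the C201R library, Ntrk3 over Hdac6 moved to -0.12. The sign turned for Nrp1 over Hdac6 (0.0088) and for Ntrk2 over Hdac6 (0.089). These pairs all hold Hdac6, so their moves share its reads in that draw and are not separate outcomes. The pairs share genes, so the 6 changes are not independent.

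**Figure D3:**
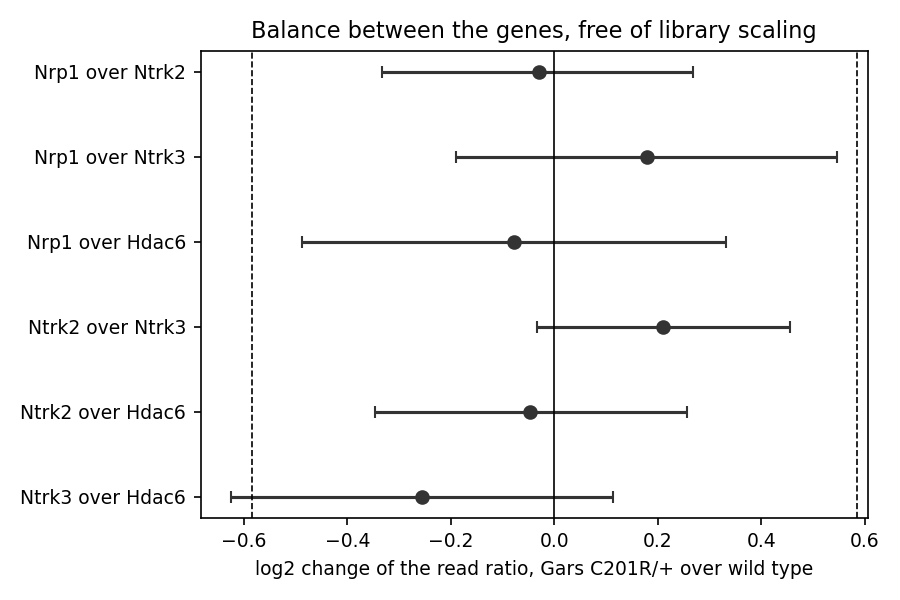
The log2 change, C201R over wild type, of the ratio of reads of 2 genes is plotted for the 6 pairs of the 4 genes, with exact conditional 95% intervals, and dashed lines mark 1.5-fold. Each of the 6 intervals crosses 0, and the interval of Ntrk3 over Hdac6, from -0.62 to 0.11, is the one that passes a dashed line.

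The choice of scaling moved the 4 ratios by less than their counting intervals, with the exception of the spike-ins. TMM, total-count, DESeq2 and upper-quartile scaling, the 2 TMM variants on fewer genes, the deposited RPKM values and a thinned wild-type library made 8 settings. Nrp1 lay between -0.085 and 0.0063, Ntrk2 between -0.019 and 0.037, and Hdac6 between -0.094 and 0.084. The sign of Nrp1 and Ntrk2 thus changed with the scaling. That of Hdac6 changed only in the thinned library, which rests on a random draw. The intervals of these 3 genes held equal levels in all 8. Ntrk3 stayed below 0 in all 8, between -0.23 and -0.17, and its interval held equal levels in 5 of them. Those 8 use the same reads and are no replicate check. The tables also list 18 ERCC spike-ins, synthetic control RNAs. They were higher in the C201R library, 94.3-fold in sum relative to the scaled gene reads, and scaling to them would lower every gene by 1 common factor. The directions above are thus relative to the other genes.

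**Figure D4:**
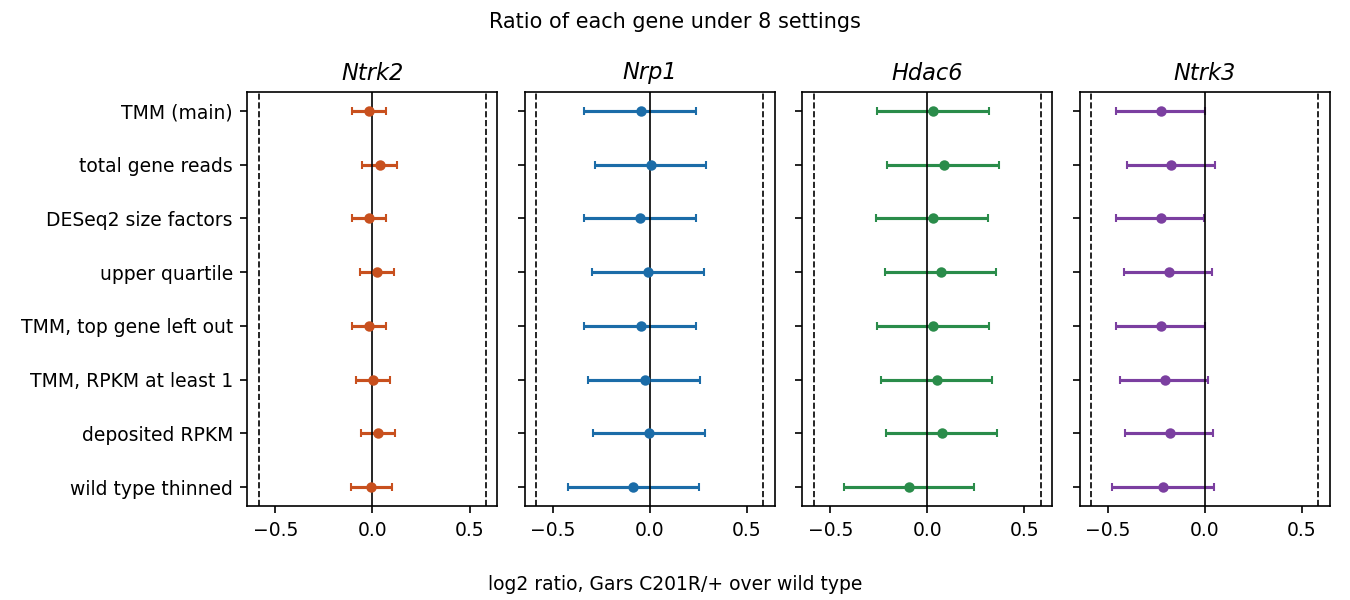
The log2 ratio, C201R over wild type, is shown for Ntrk2, Nrp1, Hdac6 and Ntrk3 under 8 settings (rows), with 95% counting intervals, and dashed lines mark 1.5-fold. Ntrk2, Nrp1 and Hdac6 cross 0 in each row, and Ntrk3 lies between -0.23 and -0.17 with intervals that cross 0 in 5 of 8 rows.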

How the data were processed

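Per the labels' protocols, lysates of 3 animals of a genotype were pooled and ribosome-protected fragments were made with RNase I, size-selected and turned into cDNA libraries. Per the submitters' processing notes, Bowtie 1.2.2, HTSeq 0.9.1 and GRCm38 were used. How they were set, which annotation was used and which part of a gene was counted is not given in the sources used here. The authors deposited whole-number read counts and RPKM values per gene. Dividing counts by RPKM gave gene lengths that were the same in both libraries, for totals of 7790126 and 3520348 reads.

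The members and lists were chosen with earlier results of these data known. Symbols come from the rule that chose the genes, and positions from RefSeq by symbol. The reference table of 49997 genes holds no Ensembl identifiers, so the 8 pathway lists and 11 marker lists, and the genes to be named from them, were not analysed here. Named genes were the 4 members.

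Counts of the 12530 genes were scaled with TMM (edgeR 4.0.16, R 4.3.3) with a prior count of 0.5 for ratios. Intervals of ratios are exact conditional binomial, those of counts exact Poisson and those of shares Wilson, all at 95%. Read groups are 10 groups of genes ordered by reads. No test between genotypes was made, because a genotype had 1 library. The intervals treat each read as its own molecule. The scripts were tested on simulated data. Alternatives were total-count, DESeq2 1.42.0, upper-quartile and spike-in scaling, TMM on fewer genes, deposited RPKM and no prior count. Thinning by 1 random draw, other read minimums and a 2-fold limit were also run. Intervals were computed with scipy 1.17.1 under Python 3.11.15.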

Additional observations from a re-analysis of the deposited data

Results flagged for a closer look

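The ERCC spike-ins, which the comparisons of the 4 genes do not use, made up 0.650% of the listed reads in the C201R library (95% Wilson interval 0.642% to 0.659%) and 0.00669% in the wild-type library (0.00614% to 0.00729%).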

How the results depend on the processing

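Scaling to the ERCC spike-ins moved the log2 ratios to -6.61 for Nrp1, -6.58 for Ntrk2, -6.79 for Ntrk3 and -6.53 for Hdac6, and left 0 genes higher and 9726 lower by 1.5-fold, because it shifts each gene by 1 factor. Of the 8 other alternatives run for the single genes, dropping the prior count included, none moved a ratio outside its counting interval. For pairs thinning alone was run, and it kept each of the 6 within its interval. With 100 reads as the minimum, 792 genes were at least 1.5-fold higher and 1095 lower. With 20 reads these numbers were 1572 and 1579. The side with more genes depended on such choices, with 1803 higher against 1602 lower without a minimum and 953 against 937 under total-count scaling. Raising the minimum to 500 reads left 4480 genes tested, of which 158 were higher and 348 lower, and a 2-fold limit gave 166 and 267 by its construction. Levels per coding length were planned and not run, because no coding length was used here. No paired analysis was possible because each genotype had 1 library, and for the same reason no replicate could be left out. Depth limits Nrp1 and Hdac6 most, with under 500 reads each in both libraries together.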
